A study of Mus musculus with 8 samples.

Results

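The genes described here are the 8 Frizzled receptor genes Fzd1 to Fzd8 and the 2 co-receptor genes Lrp5 and Lrp6, 10 of the 23284 gene symbols in the deposited table. They were taken by gene symbol. The study compared Dclk1+ cells with Dclk1- cells of the mouse pancreas by RNA sequencing of polyA RNA, with 4 libraries in each group. Both groups came from Dclk1-CreERT;tdtomato mice, which join an inducible Cre recombinase under Dclk1 control to a red fluorescent reporter, on a CBA x C57BL/6J strain background. The Dclk1+ libraries carry the numbers 1 to 4 and the Dclk1- libraries the numbers 5 to 8. The labels call the first kind Dclk1 positive and the second Dclk1 negative. Inducer treatment, age, the gate used to collect the cells and the number of animals behind each library do not appear in the labels. The p-values therefore measure the spread between these libraries, which may be technical.

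Frizzled proteins cross the membrane with a serpentine fold and bind secreted Wnt ligands through an outer cysteine-rich domain. Lrp5 and Lrp6 are single-pass relatives of the LDL receptor that bind the same ligand and, once phosphorylated inside the cell, hold Axin, so that beta-catenin is no longer degraded and reaches Tcf/Lef factors in the nucleus. Some Frizzleds also act without Lrp5 or Lrp6 in planar polarity signalling, and in the pancreas Wnt signalling is known for its roles in growth of the organ and in regeneration.

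The inner contact of both receptor kinds can be seen in the gene sequences. Each of the 8 Frizzled coding sequences held exactly 1 copy of the Lys-Thr-x-x-x-Trp motif that binds Dishevelled, the first cytoplasmic relay protein. The windows of 7 of them are shown because the motif is what these receptors share despite their different levels. The capitals mark the codons of Lys, Thr and Trp, and the sequences and positions are those of the GRCm38 assembly with the GENCODE annotation, read on the gene's strand.
Fzd1 (chr5:4755706-4755723, minus strand): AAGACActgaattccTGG
Fzd2 (chr11:102606373-102606390, plus strand): AAGACActgcactcgTGG
Fzd7 (chr1:59484607-59484624, plus strand): AAGACCctgcagtcaTGG
Fzd4 (chr7:89408241-89408258, plus strand): AAAACTcttcacacgTGG
Fzd5 (chr1:64735011-64735028, minus strand): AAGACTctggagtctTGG
Fzd3 (chr14:65212107-65212124, minus strand): AAGACAtgctttgaaTGG
Fzd6 (chr15:39033949-39033966, plus strand): AAGACGtgcacagaaTGG
All of these windows lie in coding exons. The motif began 22 codons before the last codon in Fzd1, Fzd2 and Fzd7. It began 38 codons before the last codon in Fzd4, 60 in Fzd5, 79 in Fzd8, 164 in Fzd3 and 211 in Fzd6.

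The co-receptors carry repeats of Pro-Pro-Pro-Ser/Thr-Pro-x-Ser/Thr in their cytoplasmic tails, and phosphorylated repeats bind Axin. Lrp5 and Lrp6 each held 3 matches to this pattern, and the first of each is shown because it is the part by which the pair does the same work. The capitals mark the codons fixed by the pattern and the lower case the free one, on the same assembly.
Lrp5 (chr19:3586451-3586471, minus strand): CCACCCCCGTCCCCGgccACA
Lrp6 (chr6:134453618-134453638, minus strand): CCACCACCATCGCCTgccACA

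The deposited values are raw counts per gene, summing to between 7990777 and 10282911 in the Dclk1+ libraries and between 6353841 and 7242084 in the Dclk1- libraries. Levels below are CPM, counts scaled to library size and by TMM factors, in which 1 count was worth 0.102 to 0.193 CPM. Dclk1 itself had 130.7, 220.1, 53.2 and 17.8 CPM in the Dclk1+ libraries, against 7.32, 15, 14.8 and 2.66 CPM in the Dclk1- libraries. The groups did not overlap, but the lowest Dclk1+ library, number 4, stood close to the highest Dclk1- library, and the edgeR adjusted p was 0.0503. Dclk1- libraries 7 and 8 stood apart: the ribosomal RNA gene Rn45s took 34.2% and 26.1% of their counts, against 8.90% to 18.3% in the other 6, and 6 erythroid genes summed to 2211 and 2461 CPM, against at most 51.6 CPM elsewhere. Markers of several cell types also moved with the groups. Summed levels of 12 ductal genes ran from 625.0 to 5494 CPM in Dclk1+ libraries and from 169.5 to 442.7 CPM in Dclk1- libraries, with 4 genes called higher. Of the 11 ductal genes tested, 10 had positive log2 fold changes, while Car2 went the other way. Car2 alone had 238.0 and 387.6 CPM in Dclk1- libraries 7 and 8, most of their ductal sums. In Dclk1+ library 3, Spp1 alone had 3250 CPM. Those of 10 fibroblast and stellate genes ran from 6851 to 43400 CPM in Dclk1+ libraries and from 1444 to 9976 CPM in those labelled Dclk1-, with none called. Those of 9 B lymphocyte genes ran from 35.9 to 561.7 CPM in Dclk1+ libraries and from 2207 to 2973 CPM in those labelled Dclk1-, with 2 called lower. The 8 tuft cell markers summed to 7.2 to 273.4 CPM in Dclk1+ and to 163.5 to 176.0 CPM in Dclk1- libraries, with none of the 2 tested called. Plcb2 had 1.93 to 97.3 CPM in Dclk1+ and 133.5 to 159.3 CPM in Dclk1- libraries. Alox5ap had 0.610 to 173.5 CPM in Dclk1+ and 6.66 to 27.5 CPM in Dclk1- libraries. These 2 genes made up most of each sum except in Dclk1+ library 2, and both are also expressed in blood cells. Of the other 6, Gnat3 was at 0 counts in all 8 libraries and none passed 2.85 CPM in Dclk1+ or 2.83 CPM in Dclk1- libraries. In bulk RNA, fewer cells of a type and less RNA per cell cannot be told apart, and the part of these cell types in the results below was not tested.

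All 10 receptor genes had higher fitted levels in Dclk1+ than in Dclk1- cells, and Fzd1, Fzd7 and Lrp5 rose past the test's threshold. A gene is called where edgeR's quasi-likelihood test gave a Benjamini-Hochberg adjusted p under 0.05 over the 13274 genes tested. Of the 10 genes, 3 were called higher and 0 lower in Dclk1+, beside 2.47% of all tested genes called higher, 1.02% called lower and 3.49% called either way. At an unadjusted p under 0.05, 8 of the 10 were higher and 0 lower, beside 18.3% of all tested genes higher. The log2 fold changes were positive for 10 of 10, with a median of 2.21, while 47.1% of all tested genes had a positive value and their median was -0.08. In 6 of the 10 (Fzd1, Fzd4, Fzd7, Fzd8, Lrp5 and Lrp6) the lowest Dclk1+ value exceeded the highest Dclk1- value, which was so for 10.7% of all tested genes. All 10 passed the filter on low counts, but Fzd2, Fzd6 and Fzd8 reached its level of 1.31 CPM in all 4 libraries only in the Dclk1+ group, so these 3 passed through the group in which they were high. The plot of levels by library shows the values.

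**Figure D1:**
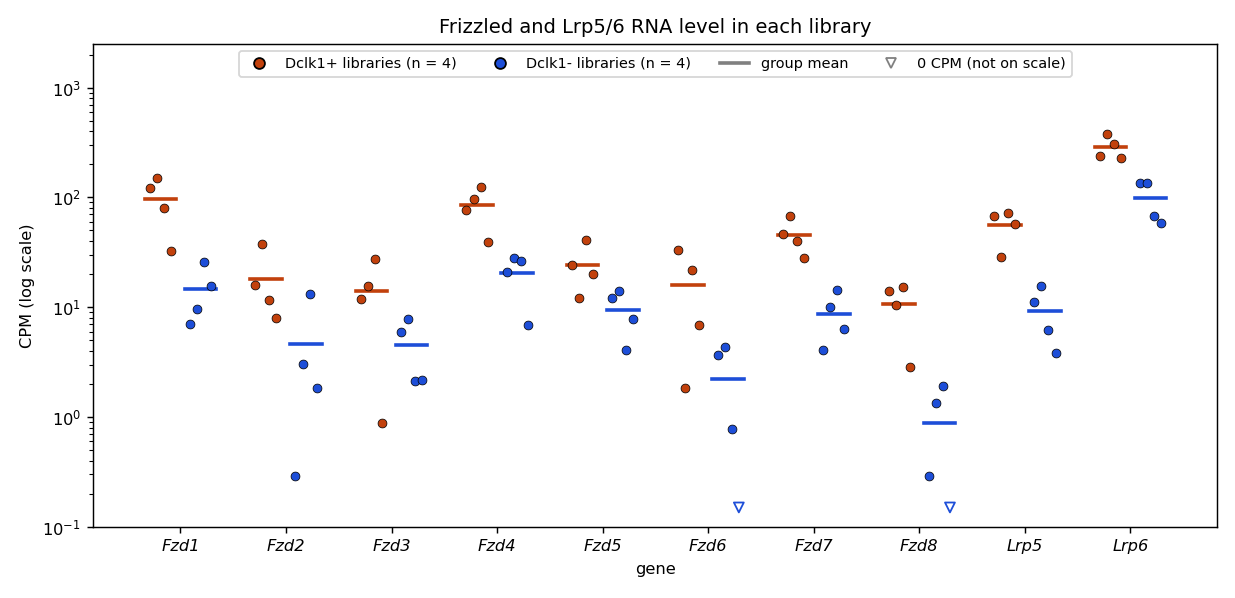
Level of each Frizzled and Lrp gene in CPM on a log scale, with Dclk1+ libraries in orange left of Dclk1- libraries in blue, a bar at each group mean and open triangles for libraries at 0. Fzd1, Fzd4, Fzd7, Fzd8, Lrp5 and Lrp6 show no overlap between the groups, and Fzd2, Fzd3, Fzd5 and Fzd6 do.

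Among the closely related receptors Fzd1, Fzd2 and Fzd7, which share much of their sequence and are typical receptors of the beta-catenin branch, Fzd1 had 121.4, 150.8, 80.8 and 32.8 CPM in the Dclk1+ libraries, against 7.03, 9.68, 26.0 and 15.5 CPM in the Dclk1- libraries. The lowest Dclk1+ library, number 4, was only slightly above the highest Dclk1- library, number 7, and the other Dclk1+ libraries were well clear. The means were 96.4 ± 51.2 CPM in Dclk1+ and 14.6 ± 8.41 CPM in Dclk1- cells (SD, n = 4 each), a log2 change of 2.73 ± 0.57 (SE, 95% interval 1.45 to 4.01) with an edgeR adjusted p of 0.0469. Fzd7 had 46.3, 67.7, 40.3 and 27.9 CPM in Dclk1+ libraries, against 4.10, 10.04, 14.4 and 6.33 CPM in Dclk1- libraries. The groups did not overlap, and Dclk1+ library 4 was again the lowest of its group. Its log2 change was 2.38 ± 0.47 (SE, 95% interval 1.33 to 3.43) with an edgeR adjusted p of 0.0469. Fzd2 had 15.8, 37.5, 11.5 and 7.98 CPM in Dclk1+ libraries, against 0.293, 3.02, 13.3 and 1.83 CPM in Dclk1- libraries. Dclk1- library 7 overlapped the Dclk1+ range, and the interval of its log2 fold change of 1.99 ± 0.95 ran from -0.15 to 4.13 (edgeR adjusted p = 0.182).

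These 3 genes reached their highest Dclk1+ level in library 2, which also had the highest summed level of the fibroblast and stellate markers, and their lowest in library 4. In the Dclk1- group their highest level was in library 7, the library with the highest fibroblast sum there (9976 CPM). Library 7 also had the highest Dclk1- sums of T lymphocyte (3576 CPM), B lymphocyte (2973 CPM) and mesothelial (72.8 CPM) markers. Fzd1 and Fzd2 share 82.0% of aligned coding bases, Fzd1 and Fzd7 78.6%, and Fzd2 and Fzd7 78.6%. Their longest identical runs in the transcripts were 47, 47 and 38 bases, and how many reads fall in such shared stretches was not measured, so the split of counts among these 3 genes is uncertain to that extent.

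Fzd4, the receptor that also binds the ligand norrin in blood vessels, had 77.3, 96.2, 125.0 and 39.3 CPM in the Dclk1+ libraries, against 21.1, 27.8, 26.4 and 6.83 CPM in the Dclk1- libraries. The groups did not overlap, with Dclk1+ library 4 the nearest to the other group. The means were 84.5 ± 35.9 CPM in Dclk1+ and 20.5 ± 9.58 CPM in Dclk1- cells (SD, n = 4 each). For Fzd4 the log2 change was 2.04 ± 0.50 (SE, 95% interval 0.91 to 3.17), and the edgeR adjusted p of 0.052 missed the threshold. Fzd4 was highest in Dclk1+ library 3, where the ductal sum was highest. Over the 8 libraries, though, its Pearson's r was similar with ductal (0.840) and with fibroblast and stellate markers (0.855). The gene for norrin, Ndp, had 0 counts in all 8 libraries.

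Fzd5 and Fzd8 form a close pair, with 76.3% of aligned coding bases identical. Fzd8 had 13.9, 10.4, 15.2 and 2.88 CPM in the Dclk1+ libraries, against 0.293, 1.33, 1.93 and 0 CPM in the Dclk1- libraries. The groups did not overlap, although the counts behind the Dclk1- values were only 2, 11, 10 and 0, and a count of 0 in library 8 allows up to 0.4995 CPM, counting error only. Its log2 change was the highest of the 10 at 3.56 ± 1.01 (SE, 95% interval 1.30 to 5.82), with an edgeR adjusted p of 0.0623. Fzd5 had 24.3, 12.2, 40.5 and 19.9 CPM in Dclk1+ libraries, against 12.2, 13.9, 4.04 and 7.83 CPM in Dclk1- libraries. Dclk1+ library 2 lay among the Dclk1- values, and the log2 change was 1.35 ± 0.51 (SE, 95% interval 0.21 to 2.49; edgeR adjusted p = 0.109). A noncoding gene model overlaps Fzd5 on the opposite strand, and the sources used here do not say whether counting used strand.

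Fzd3 and Fzd6, receptors best known from planar polarity of hair follicles and axon guidance, were the most uneven among Dclk1+ libraries. Fzd6 had 33.5, 1.83, 22.0 and 6.87 CPM in the Dclk1+ libraries, against 3.66, 4.35, 0.770 and 0 CPM in the Dclk1- libraries. Dclk1+ library 2 lay inside the Dclk1- range while libraries 1 and 3 stood far above it, an 18.3-fold range within the group. Its log2 change was 2.84 ± 1.16 (SE, 95% interval 0.23 to 5.45; edgeR adjusted p = 0.131). An antisense noncoding gene overlaps part of Fzd6. Fzd3 had 11.8, 15.6, 27.7 and 0.886 CPM in Dclk1+ libraries, against 6.01, 7.74, 2.12 and 2.16 CPM in Dclk1- libraries. Here Dclk1+ library 4, with 8 counts, was below every Dclk1- library, and the log2 fold change of 1.62 ± 0.87 had a 95% interval from -0.32 to 3.57 (edgeR adjusted p = 0.224).

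Of the co-receptors, Lrp5 had 67.4, 28.5, 72.6 and 57.8 CPM in the Dclk1+ libraries, against 11.1, 15.5, 6.16 and 3.83 CPM in the Dclk1- libraries. The groups did not overlap, with Dclk1+ library 2 the lowest of its group. The means were 56.6 ± 19.7 CPM in Dclk1+ and 9.15 ± 5.20 CPM in Dclk1- cells (SD, n = 4 each), a log2 change of 2.62 ± 0.50 (SE, 95% interval 1.49 to 3.75) with an edgeR adjusted p of 0.0469. Lrp6 had 237.0, 375.8, 305.0 and 228.6 CPM in Dclk1+ libraries, against 134.5, 135.6, 67.4 and 59.1 CPM in Dclk1- libraries. It had the steadiest Dclk1+ values of the 10 genes, with a 1.64-fold range. Its log2 change was 1.53 ± 0.38 (SE, 95% interval 0.68 to 2.38), and the edgeR adjusted p of 0.052 missed the threshold. The plot of fold changes sets the 10 intervals side by side.

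**Figure D2:**
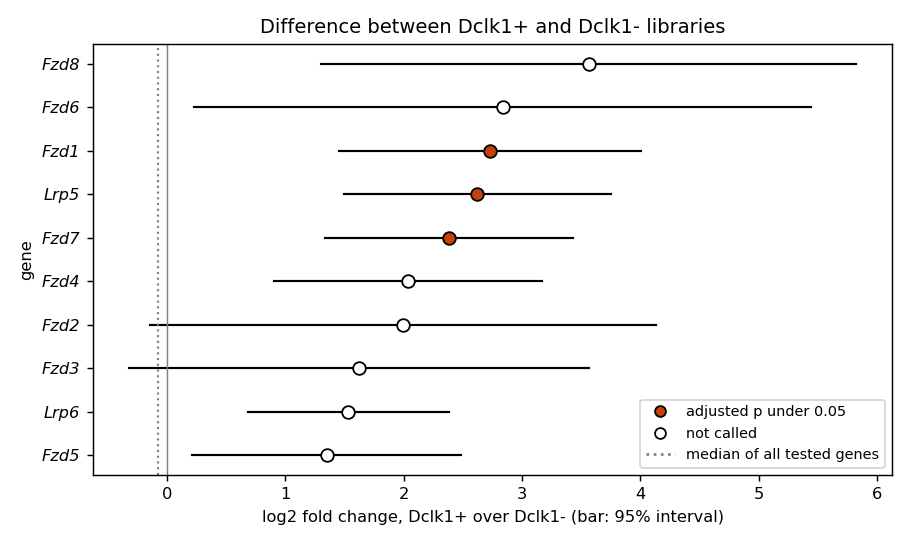
Log2 fold change of each gene, Dclk1+ over Dclk1-, with its 95% interval from the edgeR fit (4 libraries a group), and a dotted line at the median of all tested genes. All 10 points lie right of 0, the intervals of Fzd2 and Fzd3 reach below it, and the filled points Fzd1, Lrp5 and Fzd7 are the 3 called.

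The 3 calls sit close to the threshold, since the smallest adjusted p over all tested genes was 0.0467, and they depend on the libraries. Leaving out any 1 library other than Dclk1+ library 4 left 0 of the 10 called, with the lowest edgeR adjusted p among them between 0.054 and 0.1124, and the same fits called 0 genes in the whole table. Without Dclk1- library 5, which alone was aligned with other tools, the log2 changes of Fzd1, Fzd7 and Lrp5 were 2.49, 2.13 and 2.71, with an edgeR adjusted p of 0.111 each. Without Dclk1+ library 4, 7 of the 10 were called (Fzd1, Fzd3, Fzd4, Fzd7, Fzd8, Lrp5 and Lrp6), beside 12.1% of all tested genes called higher. Without Dclk1- libraries 7 and 8 together, a choice made after seeing the data, 0 were called. There 7 were higher at an unadjusted p under 0.05, beside 16.0% of all tested genes, and 7 had no overlap, beside 19.2%. The log2 fold change was positive for every receptor gene tested in each of the 18 other settings and left-out libraries.

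Levels of the receptor genes were compared with each other per kilobase of the longest coding transcript. In Dclk1+ cells Lrp6 averaged 30.6 ± 7.32 CPM per kb, Fzd1 23.0 ± 12.2, Fzd4 12.6 ± 5.35, Lrp5 11.0 ± 3.82 and Fzd7 10.1 ± 3.66 CPM per kb (SD, n = 4). Fzd2 (4.97), Fzd6 (3.71), Fzd5 (3.51), Fzd8 (1.77) and Fzd3 (1.10 CPM per kb) followed. The ranges over the 4 libraries overlapped for each pair of neighbours in this order. In Dclk1- cells Lrp6 was also highest at 10.6 ± 4.44 CPM per kb, and all 4 of its values were above those of Fzd1, the next at 3.47 ± 2.0. Fzd4 averaged 3.06, Fzd7 1.93, Lrp5 1.77, Fzd5 1.37, Fzd2 1.26, Fzd6 0.508, Fzd3 0.354 and Fzd8 0.149 CPM per kb there, again with overlapping neighbours. The 8 Frizzled genes together had 60.7 ± 23.3 CPM per kb in Dclk1+ and 12.1 ± 4.70 CPM per kb in Dclk1- cells (SD, n = 4 each). Library 4, the lowest Dclk1+ library, held 27.0 CPM per kb, against 18.2 CPM per kb in library 7, the highest Dclk1- library.

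In the make-up of the Frizzled pool, the share of each of 4 subfamilies differed between groups by less than the larger of the SDs. Fzd1, Fzd2 and Fzd7 together made up 61.5 ± 11.5% of the per-kilobase total in Dclk1+ and 53.0 ± 21.3% in Dclk1- cells (SD, n = 4 each). Fzd4 made up 21.1 ± 5.32% in Dclk1+ and 25.2 ± 9.98% in Dclk1- cells, and Fzd5 with Fzd8 made up 9.51 ± 3.98% in Dclk1+ and 14.1 ± 6.53% in Dclk1- cells. Fzd3 with Fzd6 made up 7.93 ± 4.78% in Dclk1+ and 7.73 ± 6.68% in Dclk1- cells. Fzd8 on its own made up 2.79 ± 0.98% in Dclk1+ and 0.998 ± 0.87% in Dclk1- cells (SD, n = 4 each), more than either SD apart. Its shares ran from 1.784% to 3.87% in Dclk1+ and from 0% to 1.773% in Dclk1- libraries without overlap, and by coding length from 1.779% to 3.61% in Dclk1+ and from 0% to 1.847% in Dclk1- libraries, with overlap. The Fzd1, Fzd2 and Fzd7 share was 29.8% and 40.1% in Dclk1- libraries 5 and 6, but 71.5% and 70.7% in libraries 7 and 8. With coding length in place of transcript length, Fzd4 (52.4 CPM per kb) stood above Fzd1 (50.1 CPM per kb) in Dclk1+ cells, so their order depends on the length used.

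The balance of the 2 co-receptors was read from their counts in each library, not corrected for length, since each library is set against the others for the same pair. Lrp5 made up 22.1%, 7.05%, 19.2% and 20.2% of the Lrp5 and Lrp6 counts in Dclk1+ libraries 1 to 4, against 7.65%, 10.3%, 8.38% and 6.09% in Dclk1- libraries 5 to 8. Dclk1+ library 2, with a 95% Wilson interval of 6.29% to 7.88%, lay inside the Dclk1- range, and the other 3 were above it. The group means were 17.2 ± 6.85% in Dclk1+ and 8.09 ± 1.73% in Dclk1- cells (SD, n = 4 each). Per kilobase of transcript they were 26.95 ± 10.03% in Dclk1+ and 13.75 ± 2.76% in Dclk1- cells (SD, n = 4 each), so Lrp6 was the more abundant by length too. These intervals cover counting error only. Library 2 had the lowest ductal and epithelial sums of the Dclk1+ libraries, 625.0 and 54.1 CPM.

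**Figure D3:**
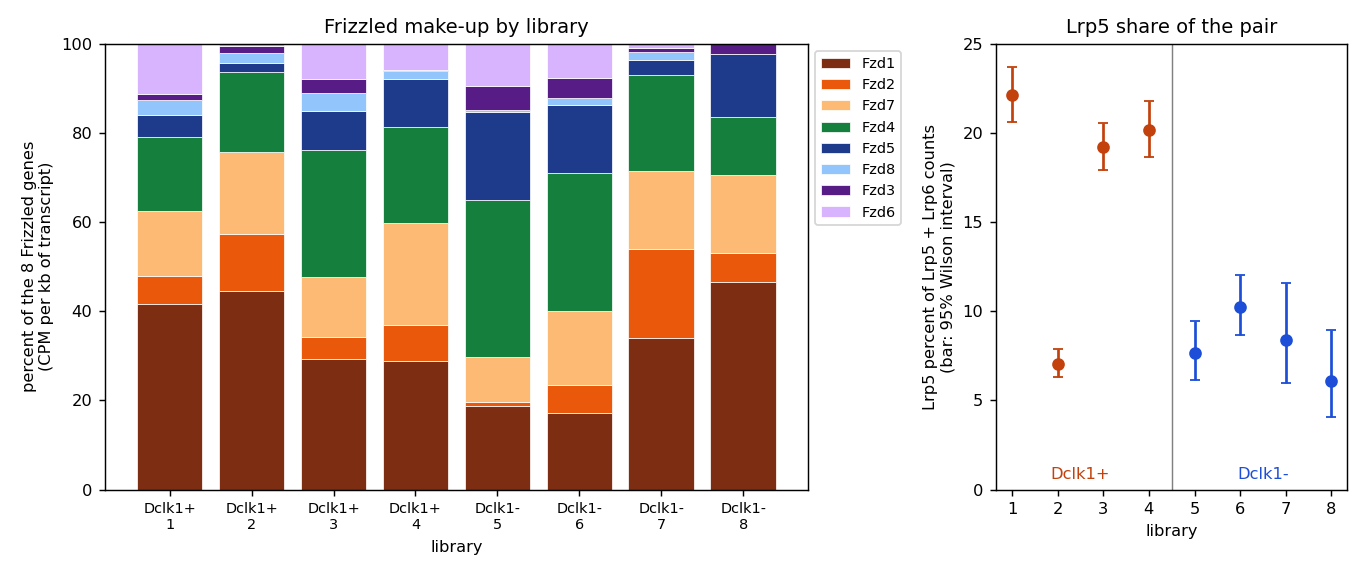
Left, percent of the 8 Frizzled genes' CPM per kb of transcript held by each gene in each library; right, Lrp5 as a percent of the Lrp5 and Lrp6 counts, with 95% Wilson intervals, Dclk1+ libraries left of Dclk1- libraries. Fzd1 takes 17.3% to 46.7% of the Frizzled total over the 8 libraries, and Lrp5 takes 19.2% to 22.1% of the pair in Dclk1+ libraries 1, 3 and 4, against 6.09% to 10.3% in Dclk1- libraries.

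The 10 genes did not share 1 order over the libraries. Within the Dclk1+ group library 4 was the lowest for 7 genes (Fzd1, Fzd2, Fzd3, Fzd4, Fzd7, Fzd8 and Lrp6) and library 2 for the other 3 (Fzd5, Fzd6 and Lrp5). The highest library was number 2 for Fzd1, Fzd2, Fzd7 and Lrp6, number 3 for Fzd3, Fzd4, Fzd5, Fzd8 and Lrp5, and number 1 for Fzd6. Library 2 had the highest fibroblast sum (43400 CPM) and library 3 the highest ductal (5494 CPM) and epithelial (1510 CPM) sums. Library 1 had the highest pericyte and smooth muscle (2042 CPM) and endothelial (2873 CPM) sums. Myh11 (955.5 CPM) and Acta2 (406.6 CPM) made up most of the first of these. Library 4 had the highest macrophage and dendritic sum (6461 CPM). No receptor gene was highest in library 4, and the part of these cell types in the receptor levels was not tested. The heatmap of libraries shows both sets.

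**Figure D4:**
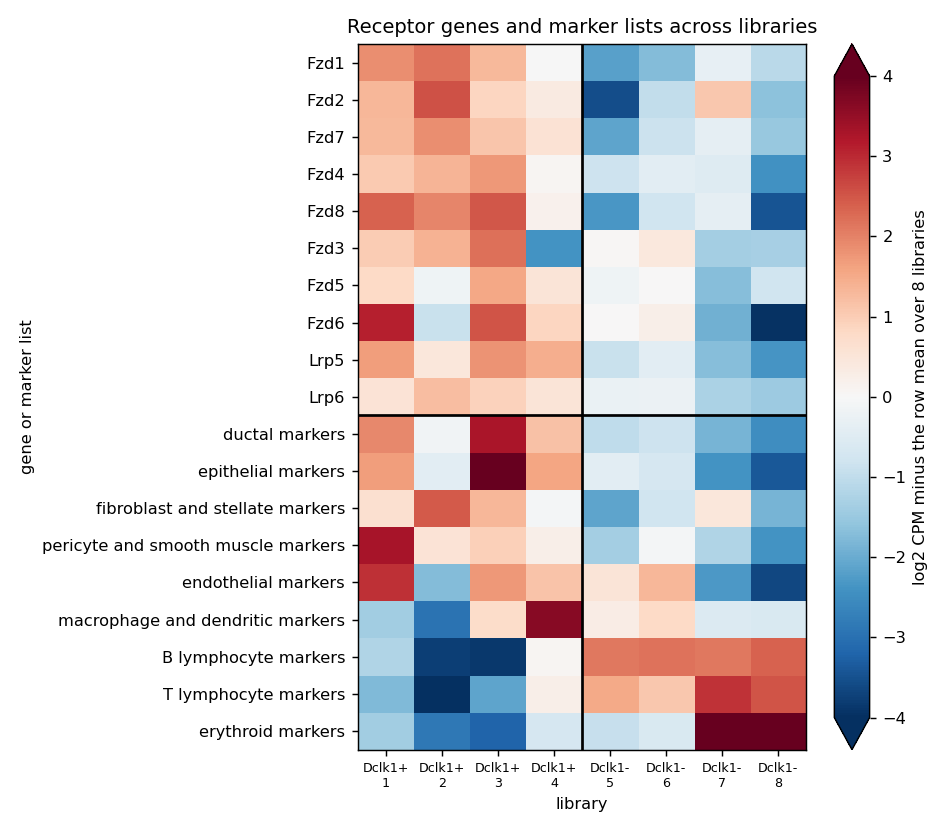
Log2 CPM of each receptor gene, and mean log2 CPM of each marker list, minus the row's mean over the 8 libraries (color), with Dclk1+ libraries left of Dclk1- libraries. Fzd1, Fzd2, Fzd7, Lrp6 and the row of fibroblast and stellate markers are highest in Dclk1+ library 2. Lrp5, Fzd3, Fzd4, Fzd5, Fzd8 and the ductal and epithelial rows are highest in Dclk1+ library 3. Over all 8 libraries Pearson's r with the fibroblast and stellate row was 0.945 for Fzd2, 0.937 for Fzd7, 0.897 for Fzd1, 0.896 for Fzd8 and 0.855 for Fzd4. Other rows also gave high values, such as 0.869 for Fzd8 with pericyte and smooth muscle markers and 0.840 for Fzd4 with ductal markers. All 8 libraries share the group difference, so r is a description.

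The genes whose log2 CPM followed each receptor most closely were found by Pearson's r over the 8 libraries, which share the group difference, so that r is a description. Closest were Ttyh2, Rai2 and Efna5 for Fzd1 (r from 0.985 to 0.994), Clip3, Eln and Adamts2 for Fzd2 (0.98 to 0.99), and Abhd4, Rilpl1 and Cul7 for Fzd7 (0.984 to 0.997). They included Ppl and Eml1 for Fzd4, and were Ttc26, Heph and Igfbp7 for Fzd8 and Magi1, Slc44a3 and Zfp612 for Fzd5 (0.987 to 0.996). For Fzd6 they were Fnbp1l, Apold1 and Ecscr (0.98 to 0.99), and for Fzd3 they were Galnt5, Usp54 and Rnf214, with lower values from 0.93 to 0.97. Lrp5 was closest to Aplp2, Ggn and Sox9 (0.98 to 0.99), and Lrp6 to Fam149a, Serinc5 and Pdgfc (0.99). Sox9, a transcription factor of pancreatic ducts, is 1 of the 12 ductal markers, and Eln encodes elastin of the extracellular matrix.

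The start regions of the called genes Fzd1 and Fzd7 are shown because both rose and both had a promoter window. The set of RefSeq promoter windows used here, on the GRCm38.p6 assembly, held 4 of the 10 genes by symbol. Each line gives the 250 bases before the start of transcription, with matches to the Tcf/Lef core in capitals.
Fzd1 (chr5:4758217-4758466, minus strand): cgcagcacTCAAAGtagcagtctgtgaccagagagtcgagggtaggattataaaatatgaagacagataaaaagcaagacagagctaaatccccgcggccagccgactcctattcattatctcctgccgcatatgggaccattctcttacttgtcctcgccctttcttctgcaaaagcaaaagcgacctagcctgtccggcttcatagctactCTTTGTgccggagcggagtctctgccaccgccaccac
Fzd7 (chr1:59481897-59482146, plus strand): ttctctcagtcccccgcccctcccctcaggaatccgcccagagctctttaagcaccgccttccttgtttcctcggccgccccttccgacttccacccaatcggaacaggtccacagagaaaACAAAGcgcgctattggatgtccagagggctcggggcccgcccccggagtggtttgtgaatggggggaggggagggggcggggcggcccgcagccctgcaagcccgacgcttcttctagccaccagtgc
The letters searched were CTTTGT and CTTTGA on both strands, which do not overlap each other here. Fzd1 held both, 37 and 242 bases before the start, and Fzd7 held CTTTGT on the other strand, 129 bases before it. Of 32851 RefSeq promoter windows of the same length, 16.5% held CTTTGT and 13.8% CTTTGA. The Fzd4 and Fzd5 windows held neither. A match is a description of the letters only.

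The rest of the pathway was read from 11 lists of 120 genes, of which 84 were tested. In the main test 3 of the 84 were called higher and 1 lower in Dclk1+ cells. Over all tested genes 2.47% were called higher and 1.02% lower, so in this test the lists were called at about the same rate. The comparison depends on the setting. With DESeq2, 32 of the 84 were called higher, beside 17.3% of all tested genes. Without Dclk1+ library 4, 27 pathway genes were called higher, beside 12.1% of all tested genes. Leaving out any other single library called 0 of either. Genes named below are those called in the main test or, where none was called, the 2 of highest mean CPM. Of 19 Wnt ligand genes 7 were tested and 0 called, with a median log2 fold change of 2.25. List medians cover tested genes only, so a gene low in 1 group could enter by being high in the other. Wnt11 did so, with 3.99 to 13.4 CPM in Dclk1+ libraries and 0 to 1.94 CPM in Dclk1- libraries. Among the untested ligands some had higher and some lower means in Dclk1+ cells. Wnt5a, a ligand best known from signalling without beta-catenin, had 44.6, 154.5, 70.9 and 28.0 CPM in Dclk1+ libraries, against 6.88, 13.3, 18.7 and 3.996 CPM in Dclk1- libraries. The groups did not overlap, and its log2 fold change was 2.80 ± 0.65 (edgeR adjusted p = 0.0501). Wnt2b had a log2 change of 1.49 (edgeR adjusted p = 0.136), and Wnt3a, Wnt7a, Wnt8a and Wnt9b had 0 counts in all 8 libraries. For these and the other genes at 0, absent RNA and RNA that was not counted cannot be told apart. Of the secretion genes, Wls, which carries Wnts to the surface, had 1.77 and Porcn, which attaches their lipid, 1.96 on the log2 scale, neither called.

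At the membrane, 0 of 4 tested genes among 7 other Wnt receptors were called, with a median of 1.92. The receptors Ryk and Ptk7 had log2 fold changes of 2.0 (edgeR adjusted p = 0.0925) and 2.59 (0.0503). The remaining Frizzled genes were at or near 0: Fzd9 reached 2.31 CPM in Dclk1+ library 3 and was at 0 in all Dclk1- libraries, and Fzd10 reached at most 1.44 CPM in Dclk1+ libraries and 0.385 CPM in those labelled Dclk1-. Of 9 R-spondin, Lgr and turnover genes 5 were tested and 0 called. Rspo3, a ligand that protects Frizzleds from removal, had a log2 change of 2.57, and Znrf3, the ligase that removes Frizzleds from the surface, had 24.9 ± 8.82 CPM in Dclk1+ and 28.9 ± 8.35 CPM in Dclk1- cells, a log2 change of -0.21 (95% interval -1.03 to 0.60). Rspo2 was at 0 in all libraries. Of 8 receptor partner genes 5 were tested and 0 called, and Reck, a Wnt7 co-receptor, had 2.64 while Mesdc2, the chaperone of Lrp5 and Lrp6, had 0.61 on the log2 scale. Of 20 secreted and membrane inhibitor genes 10 were tested and 0 called, with a median of 2.42. Igfbp4 had 0.75 and Sfrp1, which binds Wnts outside the cell, 2.33 on the log2 scale, and Dkk1 was at 0.

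Inside the cell, Csnk1e was the 1 called gene of 18 in the cytoplasmic relay, whose median log2 fold change was 0.22. This casein kinase, which phosphorylates Dishevelled and Lrp6, had 49.8, 72.5, 53.1 and 37.0 CPM in Dclk1+ libraries, against 18.5, 16.7, 17.3 and 16.5 CPM in Dclk1- libraries. The groups were far apart, with a log2 change of 1.62 ± 0.29 (edgeR adjusted p = 0.0469). Of 8 nuclear genes Tcf7l2 rose, to a mean of 109.5 ± 39.9 CPM in Dclk1+, against 20.1 ± 7.47 CPM in Dclk1- cells, with a log2 change of 2.45 ± 0.43 (edgeR adjusted p = 0.0467). The list's median was -0.25. Lef1, chosen after its values were seen, and Tcf7 are also Tcf/Lef genes, and both are members of the feedback list too. They had log2 fold changes of -3.57 (edgeR adjusted p = 0.0503) and -3.07 (0.0601). Both are also expressed in T lymphocytes. The 10 T lymphocyte markers summed to 17.4 to 614.9 CPM in Dclk1+ libraries and 912.5 to 3576 CPM in those labelled Dclk1-. Of 15 feedback targets 10 were tested and 0 called, with a median of 0.20. The highest were Tcf7, given above, and Ccnd1, which had a log2 change of 3.06 (edgeR adjusted p = 0.0521). Axin2 and Myc were also chosen after their values were seen. Axin2 had 0.61 ± 0.51, and Myc had -1.575 (edgeR adjusted p = 0.0503) without overlap between the groups. The log2 fold change was positive for 5 of the 10 tested targets, beside 47.1% of all tested genes. Sp5 was at 0.

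In planar polarity, 0 of 13 genes were called, with a median of 1.83. Dact1 and Daam1, proteins that act beside Dishevelled, had log2 fold changes of 3.94 (edgeR adjusted p = 0.0637) and 2.03 (0.0569). Of 12 other LDL receptor family genes 9 were tested, and 1 was called in each direction. Vldlr, a lipoprotein receptor, had 96.5, 318.2, 115.8 and 46.5 CPM in Dclk1+ libraries, against 15.1, 27.2, 9.05 and 2.997 CPM in Dclk1- libraries. It rose by 3.40 on the log2 scale (edgeR adjusted p = 0.0492). Sorl1, a sorting receptor, had 41.9, 19.4, 52.6 and 106.8 CPM in Dclk1+ libraries, against 313.7, 274.2, 239.4 and 263.9 CPM in Dclk1- libraries, and its log2 fold change was -2.31 (edgeR adjusted p = 0.0469). Lrp1b was at 0. The plot of lists sets these beside the receptors.

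**Figure D5:**
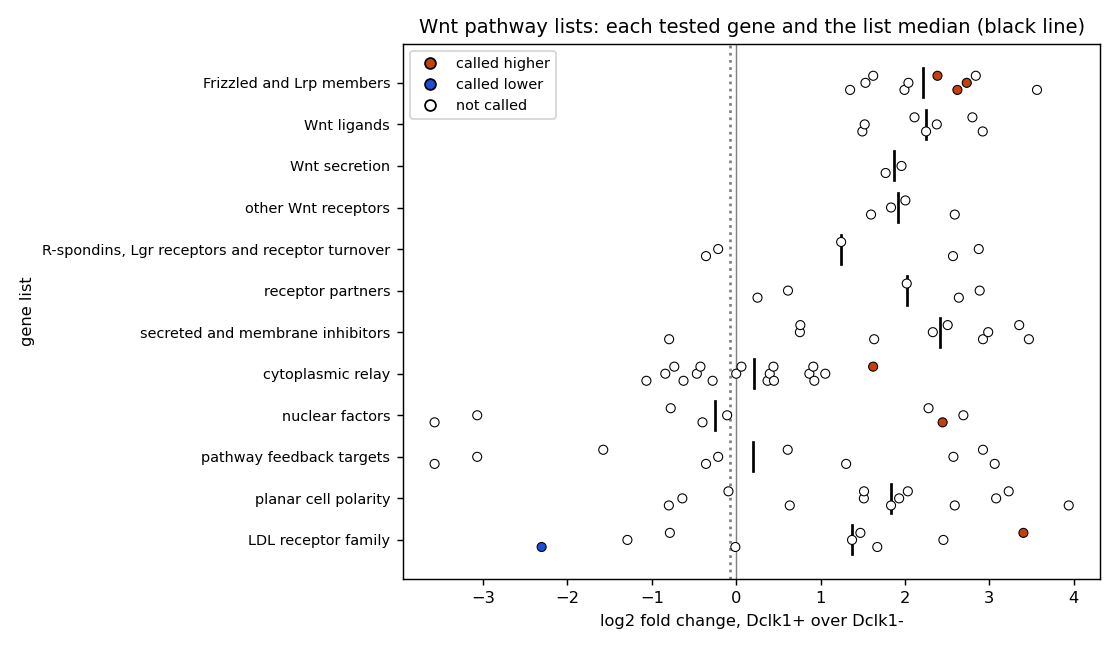
Log2 fold change, Dclk1+ over Dclk1-, of each tested gene (points) in the receptor list and 11 pathway lists, with the list median (black line) and the median of all tested genes (dotted). Receptor, ligand and inhibitor lists have medians of 2.21, 2.25 and 2.42, and the cytoplasmic relay and nuclear lists of 0.22 and -0.25. The medians cover tested genes only, 7 of 19 ligand and 10 of 20 inhibitor genes but all 18 relay and 8 nuclear genes. Some ligand and inhibitor genes, such as Wnt11 and Shisa3, passed the filter through the Dclk1+ group.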

How the data were processed

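The libraries were amplified with the Ovation RNA-Seq System V2 before a TruSeq preparation, per the labels' protocols. The authors deposited raw counts per gene symbol, aligned to mm9 with Bowtie 0.12.7 and TopHat in 7 libraries and Bowtie2 2.0.0 and TopHat2 2.0.4 in Dclk1- library 5, and counted with HTSeq 0.6.1, per the submitters' processing notes. Since 1 library was aligned by other tools, this batch cannot be told apart from that library. Amplification counts reads, not molecules.

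From the deposited counts, edgeR 4.0.16 in R 4.3.3 fitted the 13274 genes passing filterByExpr (minimum count 10, minimum total 15) with TMM factors and group alone, and a gene was called at an adjusted p under 0.05. Standard errors were taken from the F statistic. Levels are TMM-scaled CPM, with a prior count of 2 for log2 CPM. Alternatives were RLE, upper quartile and unscaled totals, leaving out Rn45s, 2 filters, DESeq2 1.42.0, limma-voom 3.58.1, robust dispersion and each library left out. Genes were named by list: the 10 receptors, called pathway genes (up to 4) or the 2 highest, genes at 0 and the 3 closest in r, of which 1 is not reported here. Lengths and sequences are from GRCm38, not mm9, so no position was joined to a read. The replicate numbers are not shared between groups. The smallest chi-square per degree of freedom between 2 replicates was 21.1 (Dclk1- libraries 5 and 6), so no pair agreed within counting noise, and each library was counted as 1 sample. This does not show that they came from different animals. Dclk1- libraries 7 and 8 had 52.2, while either of them against library 5 or 6 had 177.4 to 262.1. Whether the 4 Dclk1- libraries are independent was not tested, and the p-values take them as such. The receptors and lists were chosen with earlier results of these data known.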

Additional observations from a re-analysis of the deposited data

Results flagged for a closer look

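Of 62 groups of 4 libraries checked for a library far from the other 3, 1 stood out, where chance gives about 1 in 20. Dact1, which acts beside Dishevelled, had 657.0 CPM in Dclk1+ library 2, and the next highest Dclk1+ library had 78.5 CPM. Library 2 also had the highest fibroblast and stellate sum, 43400 CPM.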

How the results depend on the processing

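No paired analysis was possible because the labels share no replicate number between groups and name no animal, so whether libraries of the 2 groups share animals is unknown. The count of the 10 receptor genes called (3) was 5 with RLE scaling, with Rn45s left out, with no filter, with the stricter filter (minimum count 50, 8 tested) and with limma-voom, where the 5 were Fzd1, Fzd4, Fzd7, Lrp5 and Lrp6. It was 8 with DESeq2 (17.3% of all tested genes higher), 0 without a scaling factor, 0 to 7 with 1 library left out and 0 without Dclk1- libraries 7 and 8. The counts over all tested genes, 328 higher and 135 lower, were 665 and 193 with RLE, 0 and 0 without a scaling factor, 793 and 264 with no filter, 819 and 226 with the stricter one, 2290 and 1132 with DESeq2, 407 and 475 with limma-voom, 185 and 71 with robust dispersion, 0 and 0 to 1640 and 841 with 1 library left out, and 0 and 0 without libraries 7 and 8. With Rn45s left out they were 476 and 180. The genes tested numbered 13274 with RLE, DESeq2 and limma-voom, 13327 without Rn45s, 18476 with no filter and 10379 with the stricter one. At an unadjusted p under 0.05 the unscaled fit had 2507 higher and 1454 lower. Pathway genes called higher and lower, 3 and 1, were 7 and 2 with RLE, 6 and 3 without Rn45s, 11 and 4 with no filter, 12 and 2 with the stricter filter, 32 and 4 with DESeq2, 5 and 4 with limma-voom, 0 and 0 without a scaling factor or without libraries 7 and 8, and 0 and 0 to 27 and 4 with 1 library left out. The log2 fold change of Znrf3, -0.21, ranged from -0.34 to 0.0004556 with 1 library left out, the last without Dclk1+ library 4. By coding length, Fzd1, Fzd2 and Fzd7 made up 49.8% and Fzd4 30.4% of the Frizzled total in Dclk1+ cells. The cause of each change was not tested. Of the receptor values under other settings 132 kept their side of the threshold, 19 passed it and 27 lost it, and none changed direction. Low counts of Fzd6 and Fzd8 in Dclk1- libraries limit the precision of their folds.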
